A study of Saccharomyces cerevisiae with 18 samples.

Results

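The mitochondrial ribosome is built in the organelle from ribosomal RNAs of the mitochondrial genome and from proteins that are almost all encoded in the nucleus and imported. It translates the handful of mRNAs that the organelle still carries, most of which encode core subunits of the respiratory chain and of the ATP synthase. Yeast given glucose ferments it and represses respiration, whereas cells that have used up their glucose depend on mitochondria. The genes described here are the nuclear genes whose names begin with MRPL, MRPS, MRP or RSM followed by a number: 66 genes were found by that rule among the 5271 genes tested, each measured by 1 probe printed in 2 spots. By their assigned names, 37 encode proteins of the large subunit and 27 proteins of the small subunit. The remaining 2 carry the family name only: MRP8 encodes a protein that is not part of the ribosome, and RSM22 encodes a methyltransferase-like protein linked to assembly of the small subunit.

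The question the series addresses is how mRNA levels of glucose-depleted cells change once they receive fresh glucose. Cells of 2 wild-type cultures (a and b; strain given as BY4742, genetic modification as wt-matA) were depleted of glucose for 24 h and moved to fresh synthetic complete medium with 2% glucose, and RNA was taken right after the transfer (0 min), early on (at 3, 7.5 and 15 min), in the first hour (at 30 and 60 min) and late (at 110, 150 and 300 min). Each RNA was hybridised on its own two-colour array together with a shared pool of RNA, also labelled BY4742, so the 18 arrays hold 2 per time. Same-named cultures are a single culture sampled repeatedly. Values are log2 ratios of sample to pool, where 0 means the level of the pool. With 2 cultures per time, p-values rest on the spread between the cultures pooled over all times.

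For the 0 min array of culture a the dye labels and the values give opposite directions. By its dye labels the 0 min array of culture a ran opposite to that of culture b, with a correlation of -0.92 over all genes, whereas the cultures correlated at 0.61 to 0.97 at every later time. Its markers were turned as well: by its labels LYS2, a lysine synthesis gene, stood there at -3.31, against 3.29 in culture b at 0 min and 3.11 to 4.47 on the 16 later arrays. MET17, a sulphur assimilation gene, stood there at 5.60, against -5.0 in culture b at 0 min and -5.28 to -4.33 later. The mean of 7 a-cell genes was -2.30 there, 2.33 in culture b and 3.08 to 4.09 later, and that of 4 alpha-cell genes was 4.63, -4.05 and -5.06 to -4.24. The values below have the sign of that array turned. Counts against 0 min are also given as labelled. Median changes, and the values of the genes that changed most, are also given as labelled and without that array. High a-cell genes and LYS2 with low alpha-cell genes and MET17 do not match the markers known for BY4742, an alpha strain without LYS2. The strain name is therefore used only as a label. Read as mating type a, the label wt-matA goes with the high a-cell and low alpha-cell genes. From 3 min on the samples of culture a carried Cy3 and those of culture b Cy5, and with the array turned this holds at 0 min too, so culture and dye cannot be told apart. Between 98.0 and 99.3% of gene spots and at least 99.2% of the spots of the 66 genes were above local background in both channels on each array, and no spot of the 66 was saturated.

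Right after the transfer most mitochondrial ribosomal protein mRNAs were above the pool, and the family settled at the level of the pool within 15 min. The median of the 66 log2 ratios was 0.58 and 0.61 at 0 min in cultures a and b. It was 0.26 and 0.24 after 3 min, 0.17 and 0.20 after 7.5 min, and -0.02 and 0.01 after 15 min. From 30 to 300 min it lay between -0.06 and 0.02 on every array. After 15 min 31 and 34 of the 66 genes were above 0, against 64 and 61 at 0 min. In bulk RNA a lower level in each cell and fewer cells with the mRNA cannot be told apart. The spread narrowed with the level: the 66 values ran from -0.28 to 0.32 in culture a after 300 min (-0.38 to 0.33 in culture b), but from -0.44 to 2.11 at 0 min (-0.46 to 1.82 in culture b). On both 0 min arrays 38 of the 66 genes (57.6%) were higher than on any of the 16 later arrays, as were 23.6% of all genes tested.

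**Figure D1:**
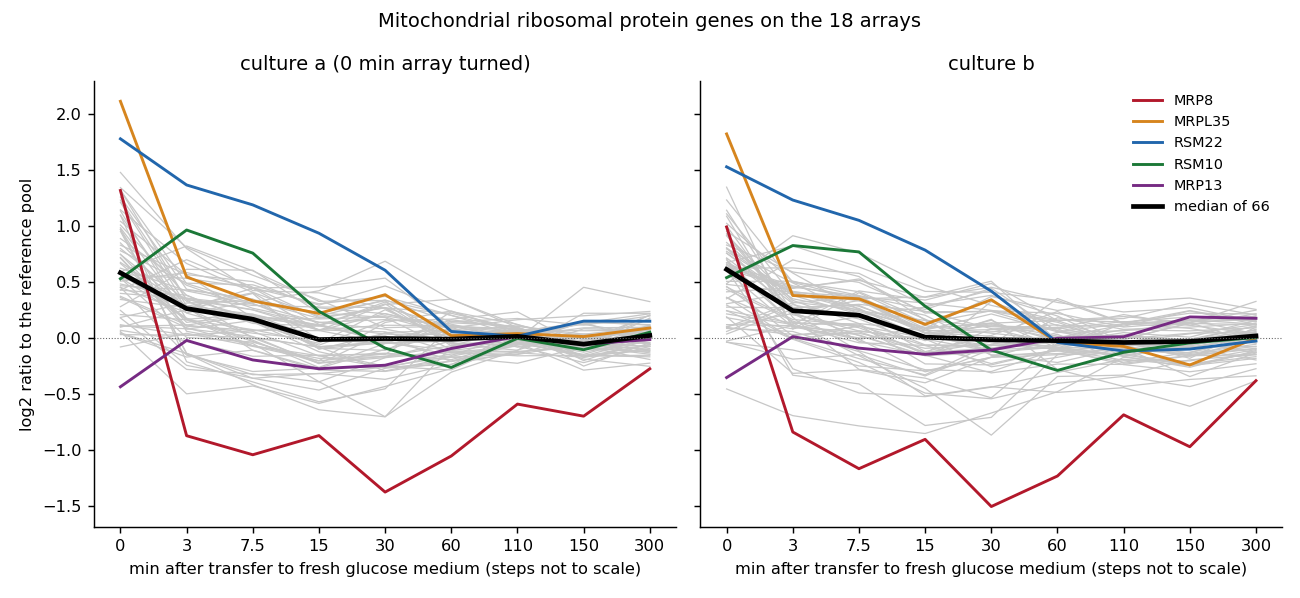
Log2 ratio to the reference pool (vertical axis) of the 66 genes at the 9 times (horizontal axis, min after transfer, steps not to scale), culture a on the left with its 0 min array turned and culture b on the right; grey lines are single genes, coloured lines 5 named genes and the black line the median. The median is 0.58 and 0.61 at 0 min and close to 0 from 15 min on, MRP8 drops below the pool, and RSM22 declines slowly.

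Against 0 min, the genes that changed were lower at every time and none was higher, on a scale where the typical gene does not change. Scaled to external controls, 2 were lower and 9 higher at 60 min, against 453 lower and 2921 higher of all 5271 genes. A gene counts as changed where its adjusted p (limma, Benjamini-Hochberg over all 5271 genes) is under 0.01 and its fold change over 1.7, a log2 change of 0.77. At 3 min 10 of the 66 were lower, a share of 15.2% against 13.4% of all genes, and 0 were higher against 12.2%. At 7.5 min 14 were lower (21.2% against 14.6%) and 0 higher (14.6%), and at 15 min 25 were lower (37.9% against 15.4%) and 0 higher (15%). From then on the number hardly moved. At 30 min 26 were lower (39.4% against 19.6%) and 0 higher (17.4%), and at 60 min 24 were lower (36.4% against 22%) and 0 higher (19%). At 110 min 23 were lower (34.8% against 20.1%) and 0 higher (19.9%), at 150 min 24 (36.4% against 20.4%) and 0 higher (19.7%), and at 300 min 23 (34.8% against 19.3%) and 0 higher (19.3%). The share at 3 min was thus near that of all genes. At an unadjusted p under 0.05 the numbers at 60 min were 48 lower and 2 higher. Without the fold threshold 42 of the 66 were lower at 60 min (63.6% against 33.3%) and 1, MRP13, was higher (1.52% against 29.8%). Both 60 min arrays lay below both 0 min arrays in 58 of the 66 (87.9% against 42.8%) and above them in 3 (4.55% against 41.4%). Over the 8 times 30 genes were lower at 1 or more times, 10 of them at all 8, and 36 never passed. No share of all genes stands beside these counts or those at an unadjusted p, so they describe the 66 only. The median log2 change of the 66 was -0.35 for 3 min, -0.60 for 30 min, -0.61 for 60 min and -0.55 for 300 min. That of all genes lay between -0.01 and 0.03. These falls are relative to the typical gene of an array, since each array was centred on its genes.

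Taken as labelled, the doubtful array left no call: no comparison of the 66 genes with 0 min passed at any of the 8 times (limma), and the median change at 60 min was 0.03. At an unadjusted p under 0.05 the numbers at 60 min were 0 lower and 0 higher. All genes together gave 66 lower and 7 higher calls at 60 min then. With that sign the cell-type markers, LYS2 and MET17 of the array lay opposite to those of every other array. Without that array, 0 min rested on culture b alone. The median changes of the 66 were then -0.27 for 3 min, -0.53 for 30 min, -0.55 for 60 min and -0.54 for 300 min. A second dependence concerns the scale: when each array was shifted so that 6 bright external control probes had a median of 0, all genes together moved by 0.91 at 60 min, the median of the 66 became 0.30, and 2 of them, MRP8 and MRPL35, were lower and 9 higher. On that scale 453 of all genes were lower and 2921 higher. Which scale holds for the cells was not tested. The external controls themselves stood at 0.84 (array turned) and 1.17 at 0 min, and at 0.07 to 0.70 later.

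**Figure D2:**
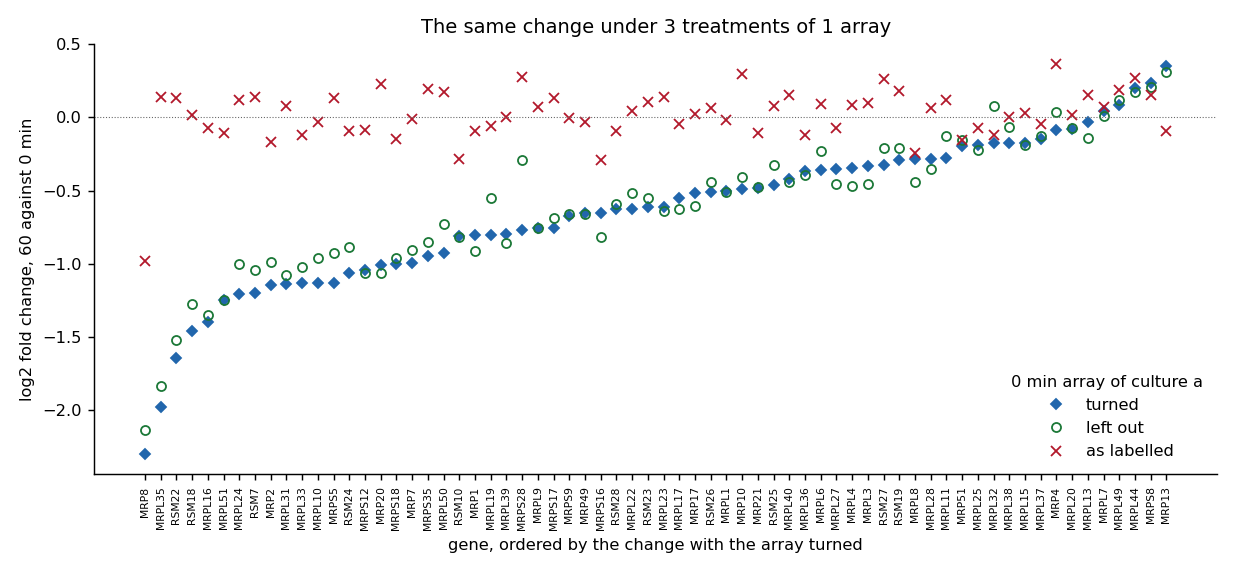
Log2 fold change at 60 min against 0 min (vertical axis) of each of the 66 genes (horizontal axis, in the order of their change) with culture a's 0 min array turned (blue), left out (green) or as labelled (red). Blue and green points run together, with medians of -0.61 and -0.55, whereas the red points lie about 0, with a median of 0.03.

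Both subunits held genes that fell. Of the 37 large-subunit genes 7 were lower at 3 min and 12 at 60 min, and of the 27 small-subunit genes 2 and 10. These are 18.9 and 7.41% of the large and small subunit at 3 min, against 13.4% of all genes, and 32.4 and 37% at 60 min, against 22%. The median change at 60 min was -0.42 in the large and -0.65 in the small subunit, with quartiles of -0.93 and -0.19 and of -0.97 and -0.47. Proteins with a bacterial counterpart (40 genes) had 16 lower at 60 min and a median of -0.66. Those known from mitochondria only (24 genes) had 6 lower, a share near the 22% of all genes, and a median of -0.47. With the doubtful array as labelled these medians were 0.03 (large subunit), 0.02 (small subunit), 0.02 (bacterial counterpart) and 0.05 (mitochondria only). No test of the differences between groups of genes was run.

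The fastest and deepest fall of the 66 belonged to MRP8, the member that is no ribosomal protein. Its log2 ratios in cultures a and b were 1.32 and 0.99 (0 min), -0.88 and -0.84 (3 min), -1.05 and -1.17 (7.5 min), -0.87 and -0.91 (15 min), -1.38 and -1.51 (30 min), -1.06 and -1.24 (60 min), -0.59 and -0.69 (110 min), -0.70 and -0.97 (150 min), -0.28 and -0.38 (300 min). Both 0 min arrays were above the pool and all 16 later arrays below it, with the lowest mean at 30 min. It was changed by -2.01 ± 0.12 (SE, adjusted p = 7.58e-08) at 3 min, which is 4.04-fold, by -2.60 ± 0.12 at 30 min, by -2.30 ± 0.12 (SE, adjusted p = 8.47e-09) at 60 min and by -1.48 ± 0.12 at 300 min. As labelled its change at 60 min was -0.98 (adjusted p = 0.431), and without the doubtful array -2.14 (adjusted p = 6.4e-08).

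MRPL35, a large-subunit protein with no bacterial counterpart, had the highest 0 min level of the family. Its log2 ratios in cultures a and b were 2.11 and 1.82 (0 min), 0.54 and 0.38 (3 min), 0.33 and 0.35 (7.5 min), 0.22 and 0.12 (15 min), 0.39 and 0.34 (30 min), 0.02 and -0.04 (60 min), 0.04 and -0.08 (110 min), 0.01 and -0.24 (150 min), 0.09 and -0.0027 (300 min). Most of the fall was present at 3 min, and the 0 min arrays did not overlap with any later array. The change was -1.51 ± 0.11 (SE, adjusted p = 3.13e-07) at 3 min, a 2.84-fold lower level, -1.98 ± 0.11 (SE, adjusted p = 1.28e-08) at 60 min and -1.93 ± 0.11 at 300 min. As labelled it was 0.14 at 60 min (adjusted p = 0.991), and without that array -1.83 (adjusted p = 1.05e-07).

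MRP20, the counterpart of bacterial L23 at the exit of the peptide tunnel, had fallen by 3 min about as far as by 60 min. Its log2 ratios in cultures a and b were 1.23 and 1.35 (0 min), 0.34 and 0.08 (3 min), 0.25 and 0.40 (7.5 min), 0.07 and 0.13 (15 min), 0.30 and 0.24 (30 min), 0.35 and 0.22 (60 min), 0.09 and 0.10 (110 min), -0.09 and 0.14 (150 min), 0.11 and 0.16 (300 min). It was changed by -1.08 ± 0.10 (SE, adjusted p = 2.83e-06) at 3 min, and the value of -1.01 ± 0.10 followed at 60 min. Of the other genes lower at 3 min, MRPL16, MRPL24, MRPL31, MRPL51 and RSM24 (named after their values were seen) had changes of -0.79 (MRPL16), -0.84 (MRPL24), -0.94 (MRPL51) -0.96 (MRPL31) and -1.0 (RSM24) at 3 min. At 60 min the changes of the 5 ran from -1.40 (MRPL16) to -1.06 (RSM24).

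In 3 further genes named by rule the lowest mean level lay at 15 or 30 min, and no return by 60 min passed both thresholds. MRPL50, the counterpart of bacterial L9, had log2 ratios in cultures a and b of 1.10 and 0.71 (0 min), -0.21 and -0.33 (3 min), -0.39 and -0.41 (7.5 min), -0.57 and -0.78 (15 min), -0.46 and -0.71 (30 min), 0.10 and -0.15 (60 min), -0.01 and -0.14 (110 min), 0.13 and -0.25 (150 min), 0.21 and -0.13 (300 min). Its change against 0 min was -1.18 ± 0.17 (SE, adjusted p = 0.000104) at 3 min. It was -1.58 ± 0.17 for 15 min, -1.49 ± 0.17 for 30 min and -0.93 ± 0.17 (SE, adjusted p = 0.000431) at 60 min. The difference of 0.56 ± 0.16 (SE, adjusted p = 0.0168) between 60 and 30 min missed the thresholds. Its call at 60 min was lost without the 0 min array of culture a (-0.73).

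MRPS12, the counterpart of bacterial S12 in the decoding centre, had log2 ratios in cultures a and b of 0.95 and 1.0 (0 min), -0.14 and 0.18 (3 min), -0.42 and -0.28 (7.5 min), -0.64 and -0.36 (15 min), -0.71 and -0.54 (30 min), -0.08 and -0.05 (60 min), 0.01 and 0.05 (110 min), -0.19 and 0.01 (150 min), -0.26 and 0.16 (300 min). It changed by -0.96 ± 0.15 (SE, adjusted p = 0.000156) at 3 min and by -1.60 ± 0.15 (SE, adjusted p = 1.4e-06) at 30 min, and stood at -1.04 ± 0.15 at 60 min. Both 30 min arrays lay below both 60 min arrays, but the difference of 0.56 ± 0.15 (SE, adjusted p = 0.015) missed the thresholds. As labelled the change of MRPS12 at 60 min was -0.09, and without the doubtful array -1.06.

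MRP2, the counterpart of bacterial S14, had log2 ratios in cultures a and b of 0.97 and 0.66 (0 min), 0.06 and 0.13 (3 min), -0.05 and -0.16 (7.5 min), -0.39 and -0.45 (15 min), -0.71 and -0.87 (30 min), -0.31 and -0.35 (60 min), -0.11 and -0.33 (110 min), 0.08 and -0.20 (150 min), 0.07 and -0.15 (300 min). Its change was -0.72 ± 0.13 at 3 min, -1.60 ± 0.13 (SE, adjusted p = 3.91e-07) at 30 min and -1.14 ± 0.13 (SE, adjusted p = 6.52e-06) at 60 min. The difference of 0.46 ± 0.11 (SE, adjusted p = 0.00883) between 60 and 30 min had an adjusted p under 0.01 but a fold change under 1.7. As labelled the change of MRP2 at 60 min was -0.17, and without the doubtful array -0.99. The lowest later level of a gene fell at 7.5 to 30 min for 32 of the 66. It fell at 60 min for 7, at 110 min for 7, at 150 min for 17 and at 300 min for 3. No share of all genes stands beside these counts, so they are a description.

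**Figure D3:**
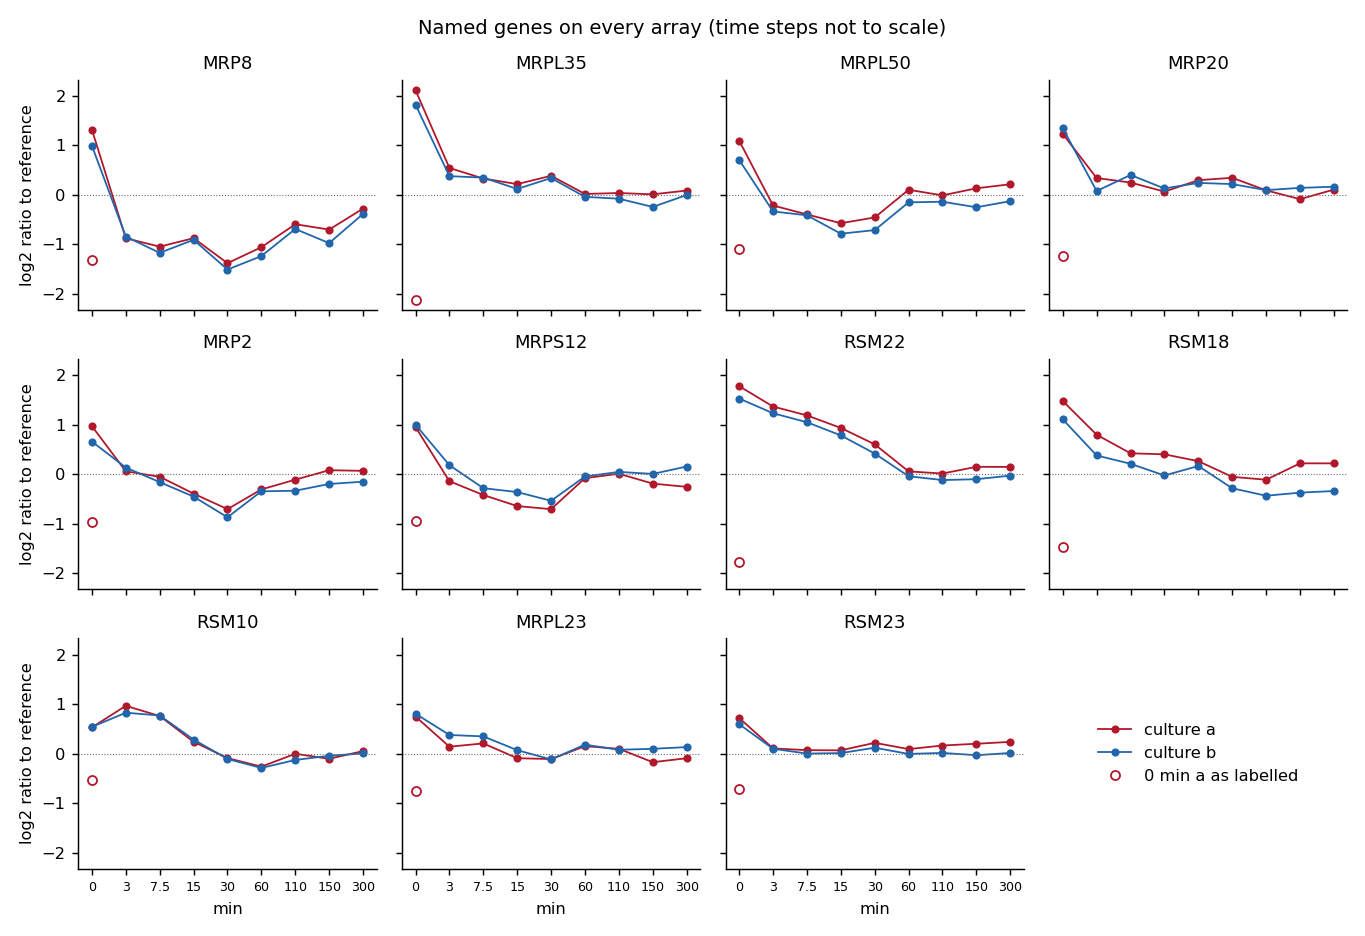
Log2 ratio to the reference pool (vertical axis) at the 9 times (horizontal axis, min, steps not to scale) of the 11 genes named by rule, culture a in red and culture b in blue, with culture a's 0 min array turned (filled) and as labelled (open circle). MRP8, MRPL50, MRP2 and MRPS12 have a minimum at 15 to 30 min, RSM22 declines until 60 min, and RSM10 is highest at 3 min.

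RSM22 declined slowly. Its log2 ratios in cultures a and b were 1.78 and 1.53 (0 min), 1.37 and 1.23 (3 min), 1.19 and 1.05 (7.5 min), 0.93 and 0.78 (15 min), 0.60 and 0.42 (30 min), 0.06 and -0.04 (60 min), 0.01 and -0.12 (110 min), 0.15 and -0.10 (150 min), 0.15 and -0.03 (300 min). The value was lower at each time than at the one before in both cultures up to 60 min, and stayed close to the pool from then on. The change was -0.35 ± 0.12 (SE, adjusted p = 0.0226) at 3 min. It was -0.79 ± 0.12 for 15 min, -1.14 ± 0.12 for 30 min, -1.65 ± 0.12 (SE, adjusted p = 1.51e-07) for 60 min and -1.59 ± 0.12 for 300 min. Its change at 3 min was 21.6% of that at 60 min, against 87.5% for MRP8 and 76.2% for MRPL35. As labelled the change at 60 min was 0.13, and without that array -1.52.

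RSM18, the counterpart of bacterial S18, also fell over the first hour, with a larger distance between the cultures. Its log2 ratios in cultures a and b were 1.48 and 1.11 (0 min), 0.80 and 0.38 (3 min), 0.42 and 0.21 (7.5 min), 0.40 and -0.03 (15 min), 0.26 and 0.17 (30 min), -0.05 and -0.28 (60 min), -0.11 and -0.43 (110 min), 0.22 and -0.37 (150 min), 0.22 and -0.34 (300 min). Culture a was above culture b at every time. The change was -0.71 ± 0.25 at 3 min, -1.46 ± 0.25 (SE, adjusted p = 0.000229) at 60 min and -1.35 ± 0.25 (SE, adjusted p = 0.000429) at 300 min.

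RSM10, the counterpart of bacterial S10, was first higher and then lower. Its log2 ratios in cultures a and b were 0.53 and 0.54 (0 min), 0.96 and 0.82 (3 min), 0.76 and 0.77 (7.5 min), 0.24 and 0.28 (15 min), -0.09 and -0.11 (30 min), -0.26 and -0.29 (60 min), -0.0046 and -0.13 (110 min), -0.11 and -0.05 (150 min), 0.05 and 0.0022 (300 min). The cultures lay close together at every time, and both were highest at 3 min and lowest at 60 min. At 3 min it stood 0.36 ± 0.06 (SE, adjusted p = 0.000412) above 0 min, short of the fold threshold, and at 60 min it had changed by -0.81 ± 0.06 (SE, adjusted p = 2.8e-07). MRPL27 and RSM27, named after their values were seen, had changes of 0.38 ± 0.14 and 0.29 ± 0.11 at 3 min and of -0.35 ± 0.14 and -0.33 ± 0.11 at 60 min, none of which passed. MRPL27 was the only gene of the 66 not above background on every array.

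The genes nearest the family's median at 60 min were MRPL23, the counterpart of bacterial L13, and RSM23, a small-subunit protein of the mitochondria-specific class. The log2 ratios of MRPL23 in cultures a and b were 0.75 and 0.80 (0 min), 0.14 and 0.37 (3 min), 0.20 and 0.35 (7.5 min), -0.09 and 0.07 (15 min), -0.11 and -0.12 (30 min), 0.15 and 0.18 (60 min), 0.10 and 0.08 (110 min), -0.17 and 0.10 (150 min), -0.10 and 0.13 (300 min). Its change of -0.61 ± 0.11 at 60 min missed the fold threshold, and that of -0.89 ± 0.11 at 30 min passed. The log2 ratios of RSM23 in cultures a and b were 0.72 and 0.59 (0 min), 0.10 and 0.10 (3 min), 0.07 and -0.00077 (7.5 min), 0.06 and 0.01 (15 min), 0.22 and 0.12 (30 min), 0.09 and -0.01 (60 min), 0.16 and 0.01 (110 min), 0.20 and -0.03 (150 min), 0.24 and 0.01 (300 min). Its change was -0.56 ± 0.10 at 3 min and -0.62 ± 0.10 (SE, adjusted p = 0.000127) at 60 min, below the fold threshold at both.

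At the other end, MRP13, a mitochondria-specific protein of the small subunit that is named here after its values were seen, was below the pool at 0 min. Its log2 ratios were -0.44 and -0.36 (0 min), -0.02 and 0.01 (3 min), -0.10 and -0.0045 (60 min) and -0.02 and 0.17 (300 min) in cultures a and b. The change of 0.35 ± 0.10 (SE, adjusted p = 0.0061) at 60 min missed the fold threshold. Changes of MRPL7, MRPL49, MRPL44 and MRPS8 at 60 min, 0.04 to 0.23, did not pass either.

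Timing differed among the 24 genes that were lower at 60 min. The change at 3 min as a share of that at 60 min had a median of 64.6% and quartiles of 47.3 and 83.4%, and exceeded 50% in 16 of the 24. Over all 1161 genes lower at 60 min the median was 52.7% and the quartiles 28.1 and 74.7%. For the 12 large-subunit genes among the 24 the median was 68.8% and for the 10 small-subunit genes 54.2%. These shares have both changes measured from the same 0 min arrays and are a description. Of the 24, 21 were also lower at 300 min.

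**Figure D4:**
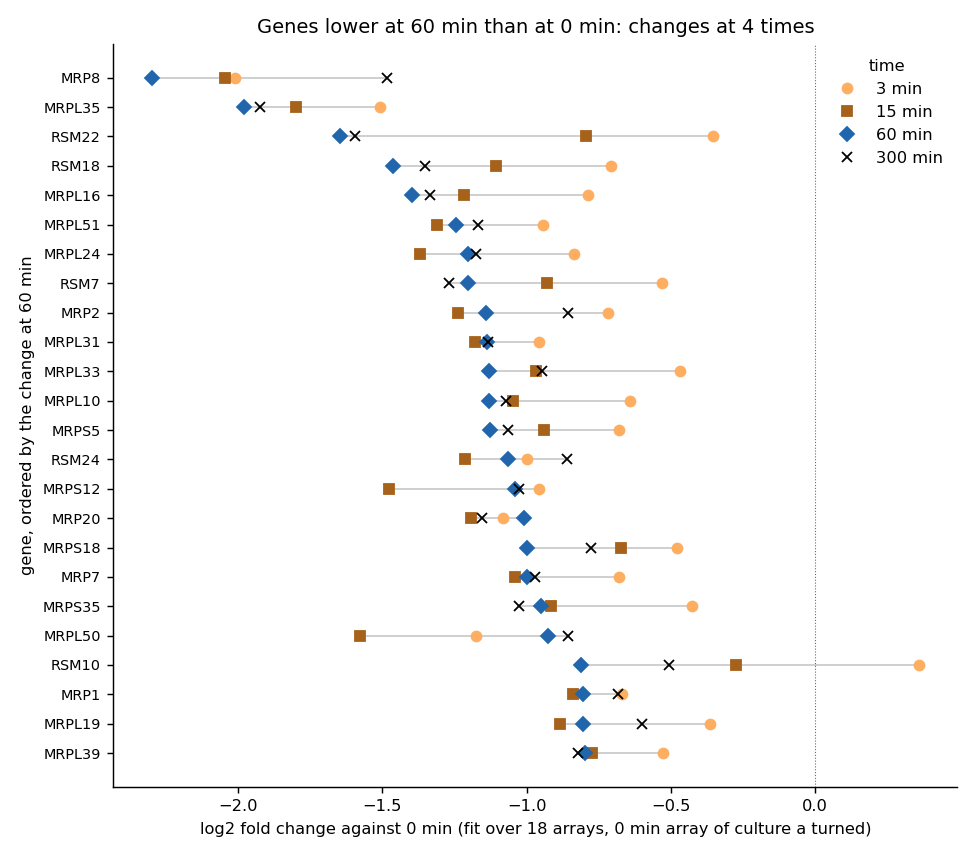
Log2 fold change against 0 min (horizontal axis) at 3, 15, 60 and 300 min (markers) of the 24 genes lower at 60 min (vertical axis, ordered by the change at 60 min). RSM22 and RSM10 are far from their 60 min value at 3 min, MRP20 and RSM24 are close to it, and MRPL50 and MRPS12 are lowest at 15 min among the times shown.

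The comparisons among the later times do not involve the doubtful array. From 3 to 60 min 2 of the 66 genes fell past both thresholds (3.03% against 12.6% of all genes) and 0 rose (9.64%). These were RSM22, with a change of -1.29 ± 0.11 (SE, adjusted p = 2.55e-06), and RSM10, with -1.17 ± 0.07 (SE, adjusted p = 9.31e-08); on the external control scale RSM22 passed and RSM10 did not (-0.74). Without the fold threshold 25 genes were lower (37.9% against 26.6%) and 0 higher (21.4%), so the changes after 3 min were mostly small. Both 60 min arrays lay below both 3 min arrays in 47 of the 66 genes (71.2% against 43.7% of all genes) and above them in 6 (9.09% against 36.6%). The median change of the 66 was -0.27 and that of all genes -0.05. On the external control scale these medians were 0.17 and 0.38, so the direction of this step depends on the scale.

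Much of this step fell between 3 and 15 min, a comparison added after the values were seen. No gene of the 66 passed both thresholds at 15 min against 3 min (2.58% of all genes were lower and 0.873% higher). Without the fold threshold 13 were lower (19.7% against 6.79%) and 0 higher (5.1%). Both 15 min arrays lay below both 3 min arrays in 52 of the 66 (78.8% against 27.9%) and above them in 2 (3.03% against 27.8%). The change of RSM10 was -0.63 ± 0.07 and that of MRPL16 -0.43 ± 0.06.

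From 60 to 300 min the family did not move as a whole. The median change of the 66 was 0.05, against 0.01 for all genes. MRP8 alone, 1 gene of the 66, was higher (1.52% against 5.1% of all genes) and 0 were lower (1.78%). Its level was -0.28 and -0.38 in the 2 cultures after 300 min, against -1.06 and -1.24 after 60 min, a change of 0.82 ± 0.10 (SE, adjusted p = 0.000131). Its fold change sank below 1.7 without the 60 min array of culture b (0.73) or the 300 min array of culture a (0.76). RSM10 was higher by 0.30 ± 0.07, below the fold threshold.

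The levels of the 66 genes correlated positively between the cultures over the first hour, but not at 150 or 300 min. Across the 66 genes Pearson's r between the cultures lay between 0.80 and 0.93 up to 60 min (0 min array turned). It was 0.67 for 110 min, -0.03 for 150 min and -0.41 for 300 min. Over all genes it was 0.88, 0.61 and 0.61 at these times. After 300 min the 66 values lay between -0.38 and 0.33, so little spread was left to correlate. Spearman's rho was 0.84 for 0 min, 0.67 for 60 min and -0.47 for 300 min. The points share an array and genes are not replicates, so this is a description. Dye differences that vary from gene to gene were not corrected, and culture goes with dye. Their part in these correlations was not tested. Over the 9 times the SD between the cultures was between 0.02 and 0.47 per gene. The largest belonged to MRPS28, the counterpart of bacterial S15, with 0.32 and -0.38 in the 2 cultures after 300 min and 1.04 and 0.08 at 0 min. Its change of -0.77 ± 0.42 at 60 min did not pass.

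Other proteins of the mitochondrial ribosome whose names do not follow the family's pattern had 4 of 11 lower at 60 min and none higher (36.4% against 22% of all genes lower), with a median of -0.54. On the external control scale 0 were lower and 2 higher, with a median of 0.38. The 4 were MHR1 (-1.17 ± 0.08 SE, adjusted p = 1.01e-07), PET123 (-1.08 ± 0.07 SE, adjusted p = 4.21e-08), YML6 and RTC6. Of the 22 translation factors and tRNA synthetases of the organelle 5 were lower and none higher at 60 min (22.7% against 22% of all genes lower), with a median of -0.13, and on the external control scale 2 were lower and 11 higher, with a median of 0.78. The largest changes were those of AIM23, an initiation factor (-2.10 ± 0.23 SE, adjusted p = 6.66e-06), MEF2, a factor of ribosome recycling (-1.85 ± 0.07 SE, adjusted p = 6.89e-10), and TUF1, the elongation factor Tu (-1.13 ± 0.23 SE, adjusted p = 0.000781). Of 8 genes of mitoribosome assembly 1 was lower at 60 min, a smaller share than the 22% of all genes. It was MAM33 (-0.91 ± 0.07 SE, adjusted p = 4.14e-07). On the external control scale 0 of the 8 were lower and 3 higher. The median of these 8 was 0.10 at 3 min and -0.29 at 60 min. Of the 3 genes for transcription in the organelle only RPO41, its RNA polymerase, was lower at 60 min (-1.08 ± 0.06 SE, adjusted p = 1.2e-08). On the external control scale 0 of the 3 were lower and 1 higher. The counts on that scale stand beside 453 lower and 2921 higher of all 5271 genes at 60 min, with a median of 0.91.

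Of 14 translational activators, which act on single mitochondrial mRNAs, 5 were lower and 1 higher at 60 min (35.7% against 22% of all genes lower). MSS51, an activator of COX1 mRNA, changed by -1.40 ± 0.13 (SE, adjusted p = 9.25e-07), CBP6, which acts on cytochrome b mRNA, by -1.39 ± 0.30 (SE, adjusted p = 0.0014) and PET122, an activator of COX3 mRNA, by 1.99 ± 0.30 (SE, adjusted p = 8.53e-05). PET122 stood at -0.77 and -0.25 after 60 min in the 2 cultures, against -2.86 and -2.13 at 0 min. Of the other genes for COX3 mRNA, named after their values were seen, PET494 was lower (-1.25 ± 0.06 SE, adjusted p = 7.22e-09) and PET54 missed the fold threshold (-0.39 ± 0.11). Without the doubtful array 3 activators were lower and 1 higher, and on the external control scale 0 were lower and 3 higher. Among 8 regulators 3 were lower at 60 min, where 22% of all genes were lower. They were HAP4 (-2.74 ± 0.19 SE, adjusted p = 1.07e-07), HAP2 (-1.86 ± 0.14 SE, adjusted p = 2.38e-07) and HAP5 (-1.08 ± 0.10 SE, adjusted p = 9.8e-07), subunits of the activator of respiratory genes. On the external control scale 2 of the 8 were lower and 3 higher. Among all 5271 genes on that scale 453 were lower and 2921 higher. PUF3, an RNA-binding protein that binds mRNAs for mitochondrial proteins, had 0.0048 and -0.01 at 60 min and 0.03 and 0.18 at 0 min, a change of -0.11 ± 0.07 (SE, adjusted p = 0.155).

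The nuclear subunits of the respiratory chain and the ATP synthase, with which the products of mitochondrial translation assemble, fell further. Of these 31 genes 29 were lower at 60 min, against 22% of all genes, and none higher. Their median was -2.63, against -0.61 for the 66 genes. Their median level after 60 min was -0.14 and -0.19 in the 2 cultures, against 2.04 and 2.67 at 0 min. From 3 to 60 min 27 of the 31 were lower, against 2 of the 66 and 12.6% of all genes. The median change of the 31 was -1.21, against -0.27 for the 66. COX13 changed by -3.92 ± 0.17 (SE, adjusted p = 1.86e-09), QCR10 by -3.70 ± 0.26 (SE, adjusted p = 1.05e-07) and RIP1 by -3.63 ± 0.12 (SE, adjusted p = 3.68e-10) at 60 min. The genes of the cytosolic ribosome went the other way. Of 125 ribosomal protein genes 63 were higher and 0 lower at 60 min, with a median of 1.61. Their median level at 0 min was -2.54 in culture a (array turned) and -0.85 in culture b. At 60 min it was -0.23 and -0.10, so the rise was larger on the arrays of culture a. Culture goes with dye, and the part of dye in this difference was not tested. Of 44 genes of ribosome assembly 22 were higher and 0 lower, with a median of 0.80. Among all genes 19% were higher at 60 min. With the doubtful array as labelled, no gene of the lists passed at 60 min, apart from 1 translation factor, and the medians were -0.56 for the respiratory subunits and -0.93 for the cytosolic ribosomal proteins. On the external control scale these medians were -1.72 and 2.52. Without the doubtful array 31 respiratory genes were lower, and of the cytosolic ribosomal protein genes 41 were higher and 2 lower. Copies of cytosolic ribosomal protein genes can share a probe's signal. The lists were compared by counts and medians only.

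**Figure D5:**
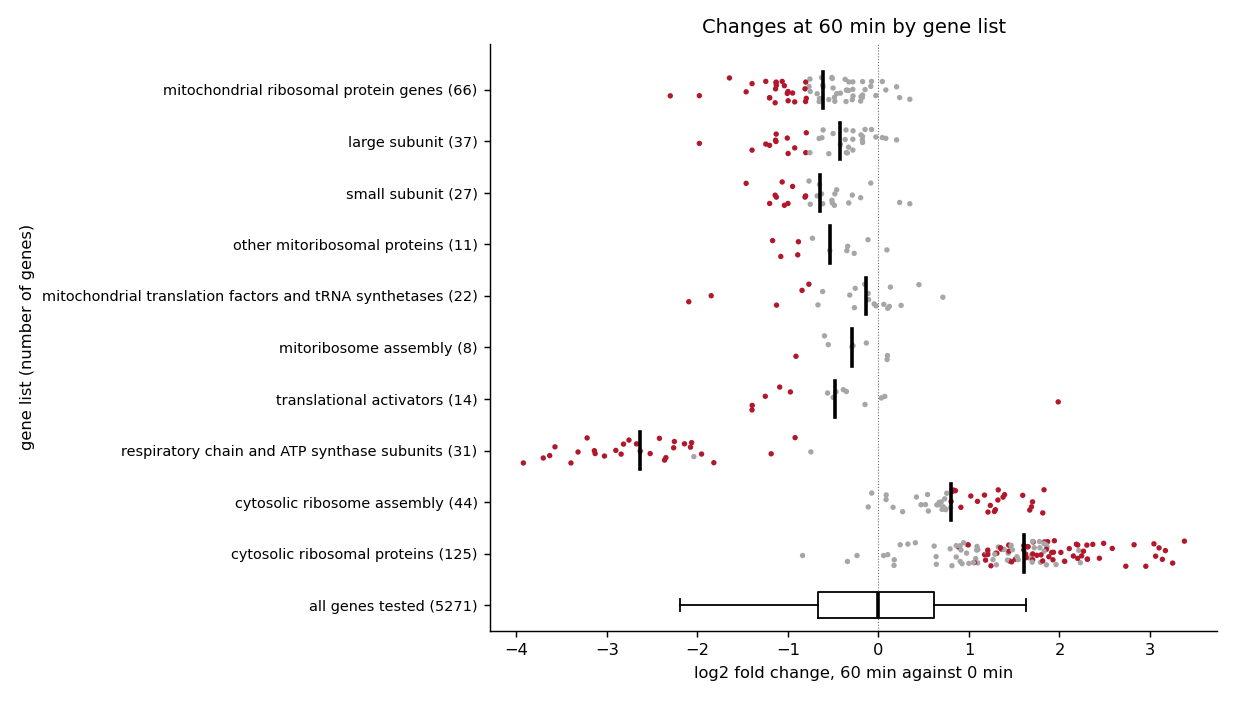
Log2 fold change at 60 min against 0 min (horizontal axis) for the 66 genes, their subunits and related gene lists (rows, number of genes in brackets); points are genes, red where past both thresholds, black bars are medians, and the box for all genes spans the quartiles with whiskers at the outer 5%. The 66 genes centre on -0.61, the respiratory subunits on -2.63 and the cytosolic ribosomal proteins on 1.61.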

How the data were processed

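Scanner output of 18 two-colour 70-mer arrays was used. The authors deposited spot intensity means and local background for 15552 spots per array, quantified in ImaGene without background subtraction, and a table of normalised log2 ratios that the authors made by print-tip loess. In their processing notes the submitters name limma 2.12.0. Set against the ratios computed here, the table's columns had slopes of about 1 (at most 1.002) and medians between -0.0142 and 0.043. Any further centring or turning of columns is not stated.

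Log2 ratios were computed from the deposited intensities with limma 3.58.1 under R 4.3.3, using a loess curve per print tip (span 0.4) and no background correction. Control spots and spots above 2 to the power 15 had weight 0 in the curve. Ratios were set to sample over pool by the dye labels, except that the 0 min array of culture a was turned, and a probe's 2 spots averaged. Of 6388 gene probes 5326 carried a name in the platform annotation, 5266 of them the current symbol and 60 an older one, and 1062 carried none. Mitochondrial (19) and transposable element (23) probes and 13 dimmer second probes were left out, which leaves 5271 genes. All 66 members were tested.

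A linear model with 1 coefficient per time was fitted across all genes (lmFit, eBayes). Comparisons with 0 min used all 18 arrays and those among later times the 16 arrays from 3 min on. Standard errors use the moderated variance. The same cultures were sampled at every time, so culture pairs the arrays. Differences between the cultures correlated at 0.389 to 0.902 over 28 pairs of times from 3 min on. Each culture kept its dye at those times, and dye differences that vary from gene to gene were not corrected. These correlations therefore cannot tell culture from dye. The model was tested on simulated data. Precision is limited by the number of arrays, since intensities are not counts.

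Named by rule were, per comparison, up to 4 members with the largest rise and fall past both thresholds and alike in direction in both cultures, the 2 nearest the median at 60 min, MRP8 and RSM22. Members, gene lists and tests were chosen with earlier results of these data known. The 6 external control probes (mean log2 intensity above 7) and the comparisons at 15 against 3 min and 60 against 30 min were chosen after the data were examined.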

Additional observations from a re-analysis of the deposited data

How the results depend on the processing

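Numbers of the 66 genes past both thresholds (10, 26, 24 and 23 at 3, 30, 60 and 300 min against 0 min, 2 at 60 against 3 min, 1 at 300 against 60 min) rest on 2 choices. With culture a's 0 min array as labelled they were 0 in all 4 comparisons with 0 min, and median changes were 0.27, 0.024, 0.028 and 0.056. MRPL35 and MRP20 then changed by 0.61 and 0.15 at 3 min, and MRPL35, MRPL50, MRP20, RSM22 and RSM18 by 0.14, 0.17, 0.22, 0.13 and 0.017 at 60 min. On the external control scale the numbers were 6, 9, 11, 12, 1 and 1. Medians were 0.13, 0.058, 0.30, 0.32 and, at 60 against 3 min, 0.17, and RSM10 changed by 0.10 at 60 min. Among all 5271 genes on that scale 453 were lower and 2921 higher at 60 min. Fitting only the arrays of the 2 times gave 6 at 3 min, from fewer arrays. Without a fold threshold the numbers were 31, 41, 43, 44, 25 and 2.

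Leaving out 1 array of a comparison gave 9 to 14, 21 to 24, 23 to 24 and 20 to 23 against 0 min, 3 in each case at 60 against 3 min, and 0 to 1 at 300 against 60 min. With the cultures as a block, which keeps the pairing, the numbers were 10, 27, 25, 23, 2 and 1, within 1.5 times of those without it. The authors' table, 1 loess curve per array, normexp with an offset of 50 and leaving out dim probes kept every number within 1.5 times. A block for slide or scan was not run, since the files name none, and no motif search was run. With 2 cultures per time the smallest changes cannot pass.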
